A study of Mus musculus with 83 samples.

Results

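Aquaporins were examined in bulk RNA-seq counts of colon tissue from ageing mice. The 8 genes considered were Aqp1, Aqp3, Aqp4, Aqp5, Aqp7, Aqp8, Aqp9 and Aqp11, taken as the rows of the count table whose Ensembl identifiers carry these symbols, out of 37764 genes listed. All 8 were found, and 7 of them, all but Aqp5, passed the filter on low counts that 18325 genes passed. The 83 animals were male C57BL/6J/Ukj mice kept for ageing only, and the labels name no genetic change or treatment in any group. The 3 youngest groups, aged 3, 9 and 15 months, held 16 mice each, the 24-month group held 17 and the 28-month group 18. Each library came from 1 mouse and the libraries were prepared in 3 batches, with 4 to 7 mice of every age in each batch. According to the methods the colon was cut across its middle and the proximal section was used. No sorting of cells is described.

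Aquaporins are membrane channels that assemble as tetramers in which every subunit has a pore of its own. The orthodox members, here Aqp1, Aqp4, Aqp5 and Aqp8, pass mainly water, the aquaglyceroporins Aqp3, Aqp7 and Aqp9 pass glycerol and other small solutes as well, and Aqp11 belongs to a distant branch found on membranes inside the cell. The colon takes back water from its content behind absorbed salt, and Aqp8 in the apical membrane and Aqp4 in the basolateral membrane of absorptive cells are the channels best known there. Aqp1 is the channel of capillary endothelium, Aqp7 the glycerol exit of fat cells, and Aqp9 the glycerol entry of hepatocytes and a channel of leukocytes.

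The pore of an aquaporin is lined by a pair of short motifs, asparagine-proline-alanine in most of the family, which meet in the middle of the membrane. The coding bases of both motifs are shown for 5 members because the branches of the family differ exactly there. Each stretch holds 27 bases of the coding strand in the 5′ to 3′ direction, read from GENCODE M21 transcripts on GRCm38, and the capitals mark the 3 codons of the motif.
Aqp8, chr7:123464193-123464219, plus strand, first motif: ggacacttcAACCCTGCTgtgtcgctg
Aqp8, chr7:123466602-123466628, plus strand, second motif: gcctgcatgAACCCTGCTcgtgccttt
Aqp1, chr6:55336707-55336733, plus strand, first motif: gctcacctcAACCCTGCGgtcacactg
Aqp1, chr6:55345828-55345854, plus strand, second motif: tgcggtatcAACCCTGCCcggtcattt
Aqp3, chr4:41094810-41094836, minus strand, first motif: gcccacttgAACCCCGCTgtgaccttc
Aqp3, chr4:41093832-41093858, minus strand, second motif: tatgccgtcAACCCTGCCcgtgacttt
Aqp7, chr4:41035602-41035628, minus strand, first motif: gcccacatgAATGCCGCAgtgactttc
Aqp7, chr4:41034804-41034830, minus strand, second motif: tatgcaatcAACCCATCCcgtgacctg
Aqp11, chr7:97737676-97737702, minus strand, first motif: acagctagcAACCCGTGCggcgtgatg
Aqp11, chr7:97729044-97729070, minus strand, second motif: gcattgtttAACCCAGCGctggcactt
All of these stretches lie within single exons, in coding sequence. In 6 of the 8 members both motifs encode asparagine-proline-alanine, and the exceptions are Aqp7, whose motifs read asparagine-alanine-alanine and asparagine-proline-serine, and Aqp11, whose first motif ends in a cysteine codon. The aquaglyceroporins share a mark after the second motif: its second following codon is gac, for aspartate, in Aqp3, Aqp7 and Aqp9, whereas Aqp1 has tca, Aqp5 tct, Aqp8 gcc and Aqp11 gca there. Aqp3 and Aqp7 are also neighbours on chromosome 4, and Aqp5 lies next to Aqp2 and Aqp6 on chromosome 15.

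The total count of a library lay between 23026370 and 75838290 read pairs on genes (median 35495123). The epithelial and smooth muscle marker lists were present in every mouse, with summed levels of 6855 to 13845 CPM (counts relative to the library size, normalized by the trimmed mean of M-values) for 7 epithelial genes and 696 to 4698 CPM for 6 smooth muscle genes. The smooth muscle score, a mean log2 CPM, was lowest in replicates 16 and 10 of 3 months, at 6.50 and 6.57 against a median of 9.03, and the epithelial score was lowest in replicate 16 of 15 months, at 9.54 against 9.94 to 10.57 in the others. These 3 mice were kept, and each member call that was lost without all 3 is given with both values. In tissue of this kind, fewer cells of a type and less RNA per cell cannot be told apart.

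Aqp8, Aqp1 and Aqp4 made up nearly all aquaporin RNA of this tissue. Levels between genes were compared per length, as TPM (counts divided by merged exon length and scaled to the same total in every mouse), over the 11 family genes in the table. Together these 3 held a median of 98.8% of the summed family TPM over the 83 mice, and at least 98.1% in every mouse. Aqp8 alone held 42.9 to 71.9%, with a median of 61.7%, Aqp1 10.1 to 38.5% and Aqp4 9.72 to 23.7%. Aqp8 ranked above Aqp1 and Aqp4 in every mouse of every age. Aqp1 and Aqp4 did not keep an order, Aqp1 being higher in 64 mice and Aqp4 in 19. Aqp4 was the higher of the pair in 4 of 16 mice at 3 months, in 7 of 16 at 15 months and in 1 of 18 at 28 months. Aqp11 followed far below them with a median of 9.68 TPM and a range of 6.56 to 12.3, below Aqp4 in all mice. The 3 aquaglyceroporins held at most 0.144% of the summed level each, with median shares of 0.0563% for Aqp3, 0.0321% for Aqp7 and 0.0196% for Aqp9, and their order changed from mouse to mouse, Aqp3 being above Aqp7 in 58 and below it in 25.

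The water channel Aqp1 was higher in the oldest mice. At 3 months its lowest, median and highest levels were 124, 191 and 238 CPM over 16 mice. At 9 months they were 147, 178 and 228 CPM, at 15 months 149, 174 and 206 CPM, and at 24 months 151, 177 and 216 CPM. At 28 months they rose to 160, 220 and 267 CPM over 18 mice. The groups overlapped at their lower ends, yet 17 of the 18 mice of 28 months lay above the median at 24 months and 10 of them lay above the highest mouse of that age. Mean levels were 179 ± 17.5 CPM (SD, n = 17) at 24 months and 219 ± 33.7 CPM (SD, n = 18) at 28 months.

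**Figure D1:**
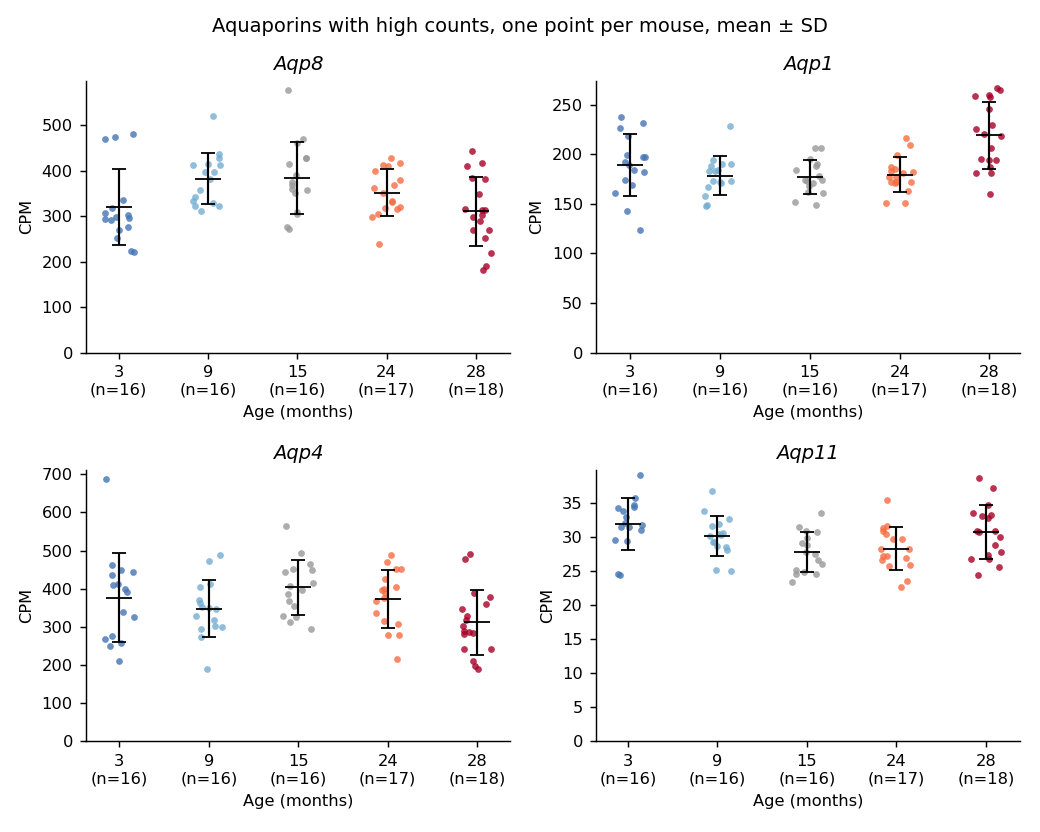
Levels of the 4 aquaporins with high counts in CPM against age in months, with 1 point per mouse and bars for the mean ± SD of each age (16, 16, 16, 17 and 18 mice). The mean of Aqp1 lay between 177 and 189 CPM up to 24 months and at 219 CPM at 28 months, while Aqp8 was highest at 9 and 15 months, with means of 382 and 384 CPM, and Aqp11 was lowest at 15 months, with a mean of 27.8 CPM.

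In the quasi-likelihood test of edgeR, with age and library batch in the model and Benjamini-Hochberg adjustment over all 18325 genes, Aqp1 was higher at 28 than at 24 months by 0.28 ± 0.06 on the log2 scale (SE, adjusted p = 0.0022). Of the 7 members it alone was called in this comparison by edgeR and by DESeq2, at the threshold of 0.1 used throughout, where 11.7% of all genes were called, 5.66% as higher and 6.01% as lower at the older age. The difference pointed the same way in each library batch, with values of 0.43, 0.16 and 0.26 in batches 1, 2 and 3, and passed the threshold within batch 1 alone (adjusted p = 0.027, 0.82 and 0.57). Against 3 months, Aqp1 at 28 months was higher by 0.21 ± 0.06 (adjusted p = 0.0057), with 0.27, 0.16 and 0.20 within the batches. Both calls held whichever of the 83 mice was left out, and without the 3 mice of lowest smooth muscle or epithelial score (0.29 and 0.26). The comparisons share the 28-month mice and are not independent. Changes before 24 months were small, with -0.09 ± 0.06 from 3 to 9 months, 0.00 ± 0.06 from 9 to 15 months (-0.0025 before rounding) and 0.02 ± 0.06 from 15 to 24 months, and accordingly the departure of Aqp1 from a straight line in age passed the test (adjusted p = 0.0028).

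Markers of vessels were not called in this last step. Of 6 endothelial markers none passed between 28 and 24 months and their median change was -0.04 on the log2 scale, while 5 of 6 were called as higher at 28 than at 3 months, with a median of 0.20, and 5 of 6 as higher at 24 than at 15 months, with a median of 0.23. In these comparisons 11.7%, 49.4% and 13.5% of all genes were called in either direction. The endothelial list summed to 195 to 239 CPM at 24 months and to 161 to 248 CPM at 28 months. Over the 83 mice, after removal of age group and batch means, Aqp1 and the endothelial score had Pearson's r = -0.21 and Spearman's rho = -0.20 (permutation p = 0.059 and 0.067, adjusted p = 0.18 for rho). Of the other scores, macrophage (r = -0.44, rho = -0.40, permutation p = 3e-05 and 0.00018, adjusted p = 0.0024 for rho), neutrophil (rho = -0.33, adjusted permutation p = 0.014) and smooth muscle (rho = -0.30, adjusted permutation p = 0.030) were the 3 most strongly related to Aqp1, and goblet cell, mesothelium and epithelium scores also passed, all with negative rho. Within batches 1, 2 and 3 rho with Aqp1 was -0.56, -0.25 and -0.40 for macrophage, -0.31, -0.29 and -0.29 for neutrophil, and -0.17, -0.30 and -0.46 for smooth muscle, and without the 2 farthest mice r was -0.36, -0.34 and -0.22 in that order. Within single ages rho ran from -0.83 to 0.16 for macrophage, from -0.46 to -0.24 for neutrophil and from -0.63 to 0.22 for smooth muscle. Of 7 goblet cell markers 3 were lower at 28 than at 24 months, with log2 fold changes of -0.91 for Clca1, -0.46 for Fcgbp and -0.22 for Agr2, and none was higher, while rho of Aqp1 with the goblet cell score was -0.45, -0.44 and 0.10 within batches. None of the 5 macrophage, 4 neutrophil and 6 smooth muscle markers tested was called in that step, with medians of 0.03, -0.12 and -0.27 on the log2 scale. The part of these cells in the difference of Aqp1 was not tested.

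Aqp4, the basolateral channel of colonic epithelium, was lower in the oldest mice than in the youngest, with a wide spread at every age. At 3 months it ranged from 209 to 687 CPM with a median of 394, at 9 months from 189 to 488 with a median of 348, and at 15 months from 294 to 565 with a median of 402. At 24 months it ranged from 215 to 487 CPM with a median of 390, and at 28 months from 189 to 491 CPM with a median of 296. The groups overlapped almost completely, with 16 of 18 mice at 28 months within the range of the 3-month group and 2 below it, and 2 of 18 above the 3-month median.

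The change from 3 to 28 months was -0.25 ± 0.12 on the log2 scale (adjusted p = 0.067), called at 0.1 but not at 0.05. Values within batches 1, 2 and 3 were -0.18, -0.05 and -0.48, none of which passed alone (adjusted p = 0.55, 0.88 and 0.17). The call was lost without a filter on low counts (adjusted p = 0.11), with epithelial and smooth muscle scores in the model (-0.19, adjusted p = 0.21), with only both ages in the fit (adjusted p = 0.16), without the 3 mice of lowest smooth muscle or epithelial score (-0.21, adjusted p = 0.17) and when any 1 of 8 mice was left out, replicates 4, 10, 11 and 14 of 3 months and replicates 5, 6, 7 and 12 of 28 months, with adjusted p up to 0.22. From 24 to 28 months Aqp4 differed by -0.25 ± 0.11 (adjusted p = 0.18) and passed in 1 of the 83 fits that left out a mouse, without replicate 3 of 28 months (adjusted p = 0.089). Over the 5 ages Aqp4 was called (adjusted p = 0.078), and this call was lost with any 1 of 14 mice left out (adjusted p up to 0.15). The gene lies on the minus strand of chromosome 18 between positions 15389496 and 15410982 of GRCm38 and overlaps a gene on the plus strand, AC133525.2. Counting by strand limits the reads shared between them.

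Aqp8, the apical channel and the most abundant member, was highest in the middle of life. Its lowest, median and highest levels were 220, 298 and 481 CPM at 3 months, 311, 389 and 520 CPM at 9 months, and 272, 372 and 577 CPM at 15 months. At 24 months they were 238, 351 and 428 CPM, and at 28 months 181, 308 and 443 CPM. All 16 mice of 9 months lay above the median at 3 months, but 1 of them above the highest mouse of that age, since 3 young mice stood above the rest of their group at 470.0, 474 and 481 CPM. No single step passed the threshold: Aqp8 differed by 0.27 ± 0.10 from 3 to 9 months (adjusted p = 0.10; 0.104 before rounding), by 0.00 ± 0.10 from 9 to 15 months (-0.0047 before rounding), by -0.12 ± 0.10 from 15 to 24 months and by -0.17 ± 0.10 from 24 to 28 months. Between 3 and 28 months the difference was -0.03 ± 0.10 (adjusted p = 0.85). The step from 3 to 9 months would have passed with any 1 of 21 mice left out, with adjusted p between 0.049 and 0.18 over the 83 omissions. The test over all 5 ages together was passed (adjusted p = 0.014), as was the test of departure from a straight line (adjusted p = 0.035), and neither call was lost without any 1 mouse. Within single batches the test of Aqp8 over the 5 ages passed in batch 1 (adjusted p = 0.076) and not in batches 2 and 3 (adjusted p = 0.70 and 0.69), and the departure from a straight line passed in none.

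Aqp5, a channel of glands and airways, was close to absent. Its counts ranged from 0 to 5 per mouse with a median of 1, and 39 of the 83 mice had none, 8 in each group up to 24 months and 7 of 18 at 28 months. It failed the filter and was not tested. Of the other family genes, the kidney channels Aqp2 and Aqp6 had at most 2 and 1 counts in any mouse, and Mip, the lens channel, was not among the genes listed. Aqp12, close to Aqp11 in the family, had 8 to 64 counts per mouse and a median of 1.96 TPM, and was higher at 9 than at 3 months by 0.40 on the log2 scale (edgeR, adjusted p = 0.085) and at 28 than at 3 months by 0.45 (adjusted p = 0.0065), with no later single step called. Markers of pancreatic acinar cells, none of which passed the filter, summed to a median of at most 0.124 CPM at any age and reached 135 CPM at 24 months and 73.4 CPM at 28 months, and their part in Aqp12 was not tested.

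The aquaglyceroporins were measured from few reads. Aqp3, the basolateral water and glycerol channel of many epithelia, had 4 to 34 counts per mouse, Aqp7 1 to 62 and Aqp9 0 to 37. Counting alone gives relative errors of about 28.0%, 25.6% and 28.7% at these depths, against a median spread between mice of the same age of 40.1% for Aqp3, 77.8% for Aqp7 and 50.3% for Aqp9, expressed as the coefficient of variation. For Aqp1, Aqp4, Aqp8 and Aqp11 the counting error was between 0.863% and 3.06%, and the spread between mice between 10.9% and 21.4%.

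**Figure D2:**
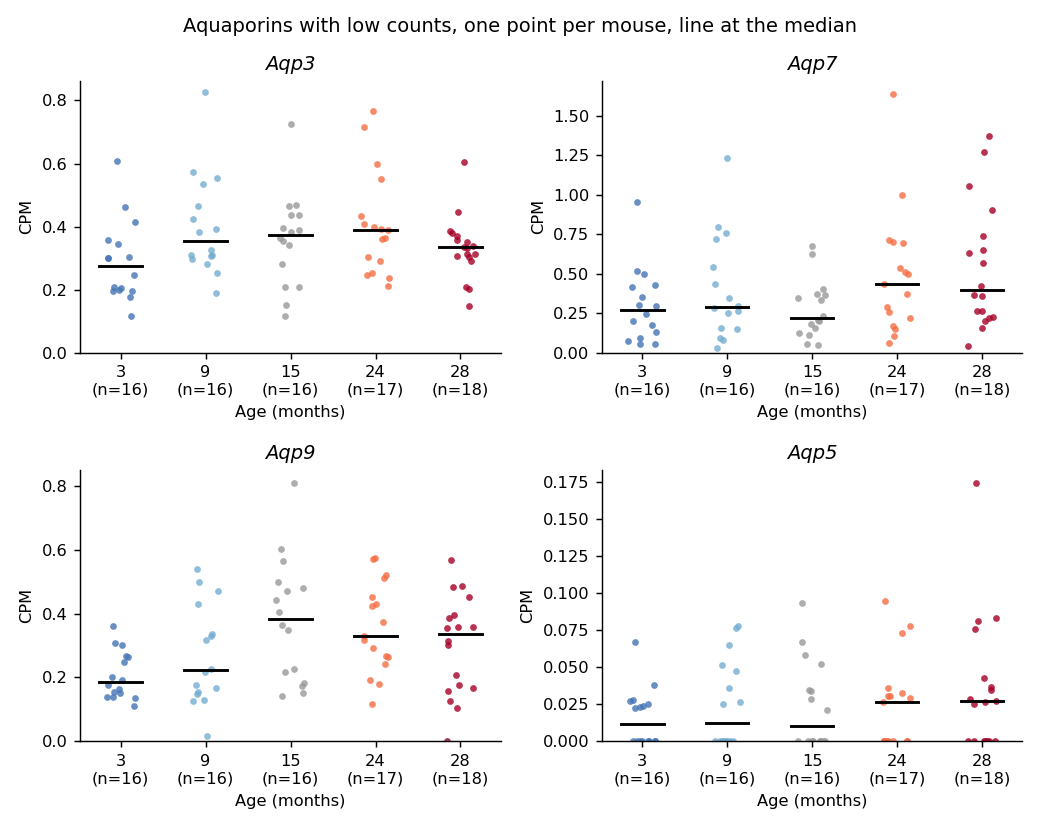
Levels of the 4 aquaporins with low counts in CPM against age in months, with 1 point per mouse and a line at the median of each age. Aqp7 has an upper tail at every age, up to 1.64 CPM at 24 months, and the median of Aqp9 lies at 0.185 CPM at 3 months and at 0.384 CPM at 15 months. Aqp5 is at 0 in 39 mice.

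Aqp7, the glycerol channel of fat cells, was higher at 28 than at 3 months. Its lowest, median and highest levels were 0.0551, 0.271 and 0.952 CPM at 3 months, 0.0286, 0.288 and 1.23 CPM at 9 months, and 0.0512, 0.218 and 0.677 CPM at 15 months. They were 0.0635, 0.437 and 1.64 CPM at 24 months, and 0.0416, 0.394 and 1.37 CPM at 28 months. The groups overlapped over most of their range, with 11 of 18 mice of 28 months above the 3-month median and 3 above its highest mouse. The change from 3 to 28 months was 0.84 ± 0.36 on the log2 scale (adjusted p = 0.051), with 0.43, 1.27 and 1.05 within batches 1, 2 and 3 (adjusted p = 0.71, 0.10 and 0.25). The call was lost without replicate 4 or replicate 14 of 28 months, with adjusted p up to 0.11, with epithelial and smooth muscle scores in the model (0.70, adjusted p = 0.10) and without the 3 mice of lowest scores (0.71, adjusted p = 0.12). Between 15 and 24 months Aqp7 differed by 0.92 ± 0.38 (adjusted p = 0.12), and this step passed without replicate 3 or 12 of 15 months or replicate 5, 8 or 14 of 24 months (adjusted p down to 0.074). Over the 5 ages Aqp7 was called (adjusted p = 0.057), but not without replicate 14 of 28 months (adjusted p = 0.11) or without the 3 mice of lowest scores (adjusted p = 0.13).

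Aqp9, the channel of liver cells and leukocytes, was also higher at 28 than at 3 months, by 0.57 ± 0.26 (adjusted p = 0.069). It ran from 0.110 to 0.362 CPM at 3 months with a median of 0.185, and from 0.0180 to 0.540 CPM at 9 months with a median of 0.222. At 15 months it ran from 0.143 to 0.810 CPM with a median of 0.384, at 24 months from 0.117 to 0.573 with a median of 0.331, and at 28 months from 0 to 0.568 with a median of 0.335. At the oldest age 6 of 18 mice exceeded every 3-month mouse and 2 lay below all of them. Over the 5 ages it was called (adjusted p = 0.025), whichever mouse was left out. Within batches 1, 2 and 3 the change from 3 to 28 months was 0.37, 0.41 and 1.05, none passing alone, and the call was lost without replicate 16 of 3 months, which had the lowest smooth muscle score, or replicate 6 or 9 of 28 months (adjusted p up to 0.12). It was also lost without a filter on low counts (adjusted p = 0.11) and with epithelial and smooth muscle scores in the model (0.50, adjusted p = 0.14). Without the 3 mice of lowest scores the change was 0.50 (adjusted p = 0.14). Both Gm47268 and Gm32511 overlap Aqp9 on the opposite strand.

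Aqp3 was not called in any comparison of the reported fit. Its medians from the youngest group to the oldest were 0.273, 0.353, 0.374, 0.390 and 0.335 CPM, with values from 0.115 to 0.826 CPM over the 83 mice. It differed most from 3 to 9 months, by 0.49 ± 0.20 (adjusted p = 0.13), where 14 of 16 mice of 9 months lay above the 3-month median, and this step would have passed without replicate 6 or 11 of 3 months or replicate 13 of 9 months (adjusted p down to 0.067). Over the 5 ages it stood just outside the threshold (adjusted p = 0.10; 0.103 before rounding), and it would have passed with any 1 of 24 mice left out.

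Aqp11, the intracellular member, had a narrow range at every age. Its lowest, median and highest levels were 24.4, 31.9 and 39.0 CPM at 3 months, 24.9, 30.2 and 36.7 CPM at 9 months, and 23.4, 27.6 and 33.5 CPM at 15 months. They were 22.6, 28.2 and 35.4 CPM at 24 months and 24.3, 30.8 and 38.6 CPM at 28 months. The course was shallow and bent, with -0.08 ± 0.06 and -0.12 ± 0.06 in the first steps, 0.02 ± 0.06 from 15 to 24 months and 0.12 ± 0.06 from 24 to 28 months, none of which passed. These steps had signs opposite to those of Aqp8 except from 9 to 15 months, where Aqp8 was flat (-0.0047). The courses were not compared by a test. The tests over 5 ages (adjusted p = 0.013) and of departure from a straight line (adjusted p = 0.047) did pass. With epithelial and smooth muscle scores in the model the latter did not (adjusted p = 0.12). Summed medians of the goblet cell list were 34826, 39376, 41260, 33944 and 27774 CPM from the youngest age to the oldest. Those of the macrophage list were 122, 120, 126, 151 and 157 CPM. The part of these cells in the course of Aqp11 was not tested.

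Counted over the members, none of 7 was called between 3 and 9 months by edgeR, where 8.69% of all genes were, with 2 (Aqp3 and Aqp8) at an unadjusted p below 0.05 and 1 (Aqp8) called by DESeq2. None was called between 9 and 15 months, where 0.431% of all genes were, with 1 (Aqp9) at an unadjusted p below 0.05 and 0 by DESeq2. None was called between 15 and 24 months, where 13.5% of all genes were, with 1 (Aqp7) at an unadjusted p below 0.05 and called by DESeq2. Between 3 and 28 months 4 of 7 were called, against 49.4% of all genes. Of these, 3 were higher at 28 months (Aqp1, Aqp7 and Aqp9), against 23.5% of all genes, and 1 was lower (Aqp4), against 25.9%. Over the 5 ages 6 of 7 were called, against 54.9%, and 3 of 7 departed from a straight line (Aqp1, Aqp8 and Aqp11), against 16.2%.

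**Figure D3:**
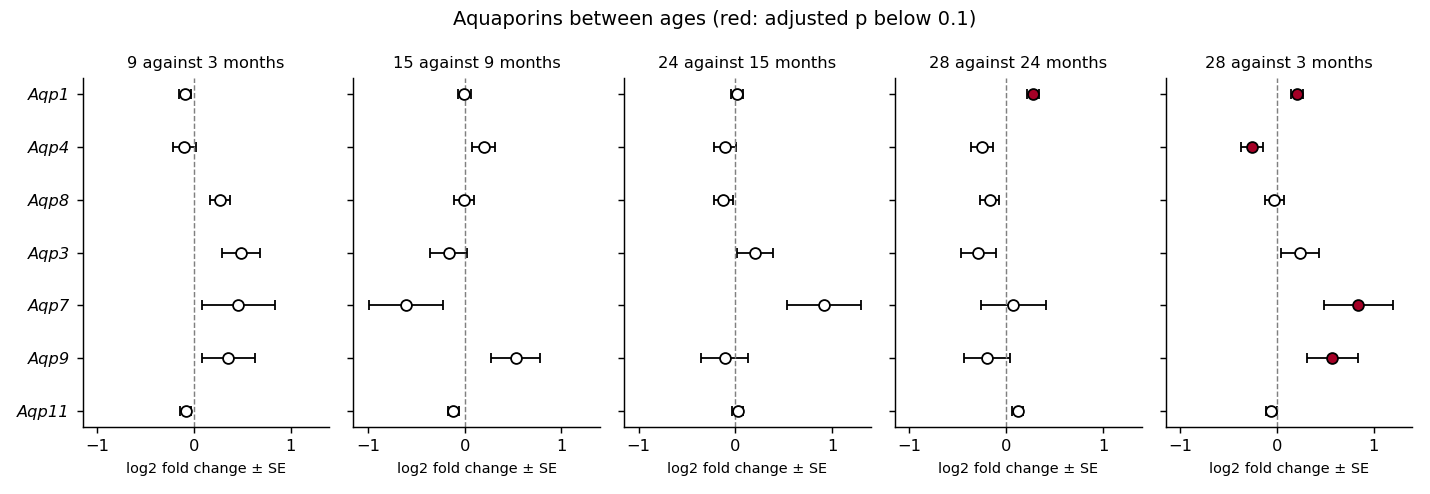
Log2 fold change of the 7 tested aquaporins in each comparison of ages, older against younger, with bars for the standard error and red points for an adjusted p below 0.1. From 24 to 28 months only Aqp1 is marked, at 0.28, and from 3 to 28 months Aqp1, Aqp7 and Aqp9 are marked on the higher side and Aqp4 on the lower, at -0.25.

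How the members varied between mice of the same age was examined next, on log2 CPM values with age group and batch means removed. Of 21 pairs of members, 11 were correlated over the 83 mice at an adjusted permutation p below 0.1 for Spearman's rho. Aqp1 and Aqp8 went in opposite directions (r = -0.65, rho = -0.59, permutation p = 1e-05 for both, the smallest that 100000 resamples can give, adjusted p = 0.000105). This pair kept r = -0.62 without the 2 mice whose Aqp8 deviations lay farthest from their median, and rho was -0.46, -0.55 and -0.78 within batches 1, 2 and 3. Throughout, the 2 farthest mice were picked on the second member of a pair, or on the marker score. Aqp1 and Aqp11 went together (r = 0.57, rho = 0.56, permutation p = 1e-05 for both, adjusted p = 0.000105), with r = 0.50 without the 2 farthest mice and rho of 0.56, 0.32 and 0.76 within batches. Aqp4 went with Aqp8 (r = 0.41, rho = 0.37, permutation p = 0.00013 and 0.0007, adjusted p = 0.0037 for rho) and against Aqp11 (r = -0.45, rho = -0.38, permutation p = 2e-05 and 0.00039, adjusted p = 0.0027 for rho). These values come from the same libraries, and a correlation between genes measured in the same libraries also carries what the libraries share in depth and cell make-up, the part of which was not tested.

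The spread of Aqp4 went with that of the Hox13 genes. Hox genes are transcription factors laid out in 4 clusters, whose highest-numbered paralogs, the Hox13 genes, are used at the distal end of the hindgut. Which stretch of the proximal colon each sample came from is not given in the sources used here. Among 14954 genes with a mean of at least 1 CPM, those most like Aqp4 were Chp2, a partner of sodium-proton exchangers (rho = 0.80), Hoxa13 (rho = 0.75) and B3gnt5, a glycosyltransferase (rho = 0.73). Against a score of the 3 measurable Hox13 genes, Hoxa13, Hoxb13 and Hoxd13, Aqp4 had r = 0.66 and rho = 0.61 (permutation p = 1e-05 for both, adjusted p = 0.000238 over 119 relations of members and marker scores, of which 38 passed 0.1 for rho). It kept r = 0.62 without the 2 farthest mice, and rho was 0.69, 0.43 and 0.68 within batches 1, 2 and 3 and between 0.27 and 0.72 within single ages. Scores of surface colonocytes (rho = 0.35), goblet cells (rho = 0.34) and skeletal muscle (rho = -0.32) also passed with Aqp4 (adjusted permutation p = 0.012, 0.012 and 0.019). Mesothelium (rho = 0.25) and liver (rho = 0.24) passed as well (adjusted permutation p = 0.085 and 0.094). Within batches rho was -0.04, 0.46 and 0.49 for surface colonocytes and 0.41, 0.51 and 0.17 for goblet cells.

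The Hox13 list summed to 17.8 to 75.2 CPM over all mice, with medians of 41.9, 42.1, 45.0, 46.7 and 43.2 CPM from the youngest age to the oldest. Of its 3 tested genes 1, Hoxd13, was called between 3 and 28 months, as lower, where 49.4% of all genes were called, while Hoxa13 differed by -0.05 ± 0.09 and Hoxb13 by 0.00 ± 0.27 (-0.0027 before rounding). Hoxd13 rested on few reads, with 0 to 91 counts per mouse and a median of 9. Hoxa13 had a median of 920 counts and Hoxb13 of 673, and all of them carry the same weight in the score. Of other lists, 3 of 7 epithelial and 2 of 7 surface colonocyte markers were called as lower at 28 than at 3 months, and none as higher. Over all genes 25.9% were lower. Of 7 goblet cell markers 5 were lower and 2 higher, while all 4 mesothelial and 2 of 4 skeletal muscle markers were higher. The part of these cells in the difference of Aqp4 was not tested. With the Hox13 score added to the model, a choice made after the data were seen, the change of Aqp4 from 3 to 28 months was -0.17 with an adjusted p of 0.11. In the same model Aqp1 kept its call from 24 to 28 months (0.26, adjusted p = 0.0053), and Aqp8 passed from 3 to 9 months (0.28, adjusted p = 0.066).

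**Figure D4:**
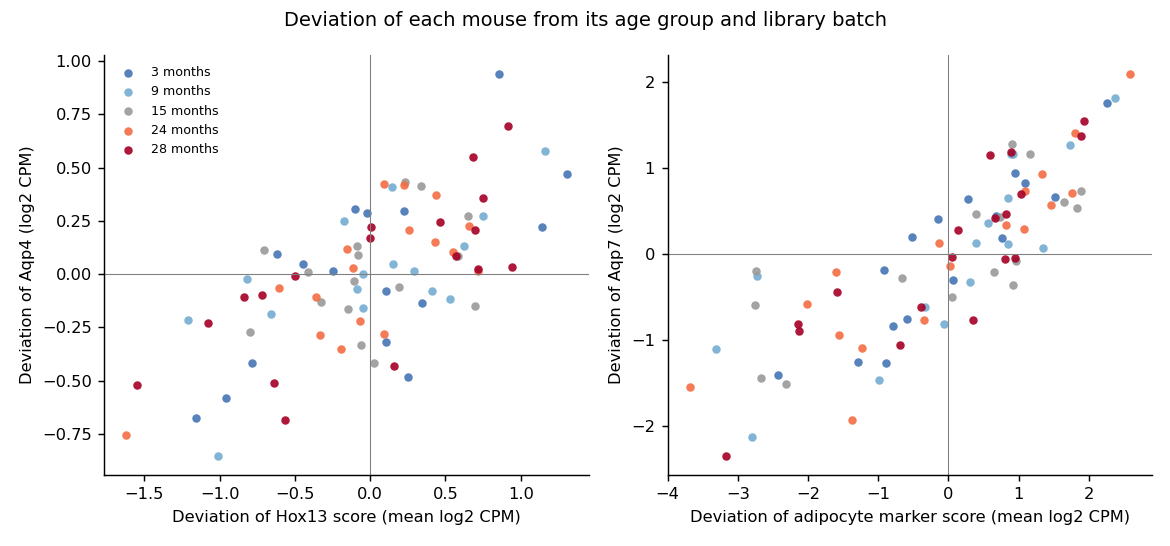
Deviation of each of 83 mice from its age group and library batch, coloured by age. The left panel sets Aqp4 (log2 CPM) against the Hox13 score and the right panel Aqp7 against the adipocyte marker score (both mean log2 CPM). Points of all ages lie along the same upward bands, with rho = 0.61 on the left and rho = 0.86 on the right.

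Set against all 32 Hox genes that passed the filter, the abundant members fell on both sides. Aqp4 was positively correlated with all 3 tested Hox13 genes, at rho of 0.43 to 0.75, and negatively with the Hoxb genes of numbers 2 to 9, down to -0.60 for Hoxb7 and Hoxb8. The values did not follow paralog number throughout: most Hoxa genes of lower number were also positive with Aqp4, up to 0.57 for Hoxa9, and of the 6 genes of numbers 10 to 12 only 2 were, with a median of -0.23 and -0.44 for Hoxd10. Aqp8 had values of 0.27 to 0.40 for the Hox13 genes and down to -0.40 for Hoxb4, and differed in sign from Aqp4 for Hoxb2, Hoxc5, Hoxc6, Hoxc10 and Hoxd9. Aqp11 was turned the other way, at -0.49 to -0.42 for the Hox13 genes and up to 0.63 for Hoxb7. Aqp1 stood out by a single gene, Hoxb9, at rho = 0.76, the second most like it of all genes after Tbc1d16 (rho = 0.77), which regulates Rab proteins, and before Rab37 (rho = 0.72), a small GTPase. These values are descriptions over the same 83 libraries. Against the Hox13 score Aqp11 had r = -0.57 and rho = -0.52 (permutation p = 1e-05 for both, adjusted p = 0.000238), with r = -0.51 without the 2 farthest mice and rho of -0.49, -0.41 and -0.62 within batches. Aqp1 had r = -0.26 and rho = -0.21 with this score (adjusted permutation p = 0.063 and 0.16), and so did not pass for rho. Within batches rho of Aqp1 was -0.15, -0.04 and -0.47.

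**Figure D5:**
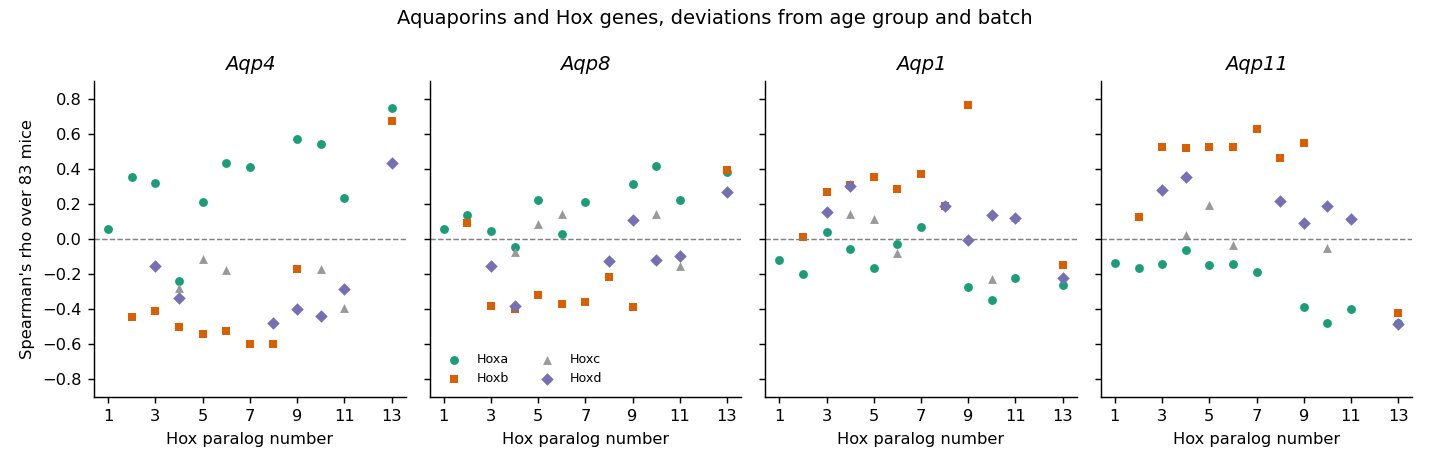
Spearman's rho over 83 mice between 4 abundant aquaporins and the 32 Hox genes that passed the filter, plotted by paralog number and coloured by cluster, after removal of age group and batch means. At number 13 Aqp4 and Aqp8 are positive, Aqp1 is weakly negative (-0.26 to -0.15) and Aqp11 negative (-0.49 to -0.42). The Hoxb genes of numbers 3 to 8 lie below 0 for Aqp4 and above 0 for Aqp11.

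Aqp7 went with genes of fat cells. The genes most like it were Plin1, which coats the lipid droplet (rho = 0.88), Car3, a carbonic anhydrase abundant in fat (rho = 0.88), and Adipoq, the fat hormone adiponectin (rho = 0.87). Plin1 and Adipoq also stand in the adipocyte marker list, against whose score Aqp7 had r = 0.83 and rho = 0.86 (permutation p = 1e-05 for both, adjusted p = 0.000238). It kept r = 0.83 without the 2 farthest mice, and rho was 0.91, 0.83 and 0.79 within batches 1, 2 and 3 and between 0.75 and 0.90 within single ages. Of the 6 adipocyte markers, 4 ranged widely between mice, with 0 to 1486 counts of Adipoq, 0 to 921 of Plin1, 0 to 155 of Lep and 1 to 6514 of Cfd. Cidec (243 to 1688 counts) and Pck1 (4165 to 18041 counts) were present in every mouse, and the list summed to 166 to 453 CPM. Aqp7 went also with the score of mesothelium, the outer lining of the gut (r = 0.59, rho = 0.59, permutation p = 1e-05 for both, adjusted p = 0.000238), with r = 0.57 without the 2 farthest mice and rho of 0.71, 0.52 and 0.55 within batches. Scores of smooth muscle (rho = 0.35, within batches 0.41, 0.31 and 0.40), blood endothelium (rho = 0.35, within batches 0.57, 0.43 and 0.04) and red blood cells (rho = 0.32, within batches 0.58, 0.29 and 0.11) also passed with Aqp7 (adjusted permutation p = 0.012, 0.011 and 0.017).

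Between 3 and 28 months 2 of 6 adipocyte markers were called, Cidec as higher and Pck1 as lower, and the median change of the list was 0.49 on the log2 scale, while Adipoq differed by 0.64 ± 0.60 (adjusted p = 0.40). Over all genes 49.4% were called in this comparison, 23.5% as higher and 25.9% as lower. All 4 mesothelial markers were called as higher at 28 months, with a median of 1.28. The mesothelial list summed to 1.29 to 5.94 CPM at 3 months and to 2.67 to 13.7 CPM at 28 months. With the adipocyte score in the model, chosen after the data were seen, Aqp7 was higher at 28 than at 3 months by 0.69 (adjusted p = 0.0038) and higher at 24 than at 15 months by 0.56 (adjusted p = 0.090). Between 3 and 28 months 5 of 6 endothelial markers and 5 of 5 red blood cell markers were also called as higher, with medians of 0.20 and 1.26. The part of these cells and of mesothelium in the difference was not tested.

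Aqp9 was most like Tram2, a protein of the endoplasmic reticulum (rho = 0.58), Iglv3, an immunoglobulin segment (rho = 0.55), and P2ry13, an ADP receptor (rho = 0.55). Against the macrophage score it had r = 0.50 and rho = 0.42 (permutation p = 1e-05 and 8e-05, adjusted p = 0.0015 for rho), with r = 0.40 without the 2 farthest mice and rho of 0.60, 0.37 and 0.33 within batches and of 0.015 to 0.61 within single ages. The scores of blood endothelium (rho = 0.36, adjusted permutation p = 0.011), goblet cells (rho = 0.32, adjusted permutation p = 0.017) and neutrophils (rho = 0.28, adjusted permutation p = 0.045) also passed with Aqp9. Within batches 1, 2 and 3 rho was 0.64, 0.38 and 0.11 for endothelium, 0.46, 0.12 and 0.40 for goblet cells, and 0.27, 0.21 and 0.35 for neutrophils. Of 5 macrophage markers 4 were called as higher at 28 than at 3 months, with a median of 0.45, and of 4 tested neutrophil markers 3 were, with a median of 1.14. Goblet cell markers went mostly the other way, with 7 of 7 called, 2 as higher and 5 as lower, and a median of -0.27, and 5 of 6 endothelial markers were higher. Over all genes 23.5% were called as higher in this comparison and 25.9% as lower. The macrophage list summed to 95.4 to 146 CPM at 3 months and to 88.2 to 231 CPM at 28 months, and the neutrophil list to 2.31 to 5.59 and 2.25 to 6.99 CPM. The part of these cells in the difference of Aqp9 was not tested. Of the 4 liver markers, Fgb reached at most 4 counts, Alb 83 and Apoa1 139, and Ttr had 46 to 250. Apoa1 was lower at 28 than at 3 months (-1.96 on the log2 scale), and Alb and Ttr were not called.

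Aqp8 was most like Cyp4f16, a cytochrome P450 (rho = 0.65), Agpat4, an acyltransferase (rho = 0.61), and Tcf7l1, a transcription factor of the Wnt pathway (rho = 0.60). Against the surface colonocyte score it had r = 0.38 and rho = 0.46 (permutation p = 0.00035 and 1e-05, adjusted p = 0.000238 for rho), with r = 0.41 without the 2 farthest mice and rho of 0.21, 0.47 and 0.57 within batches and of -0.02 to 0.89 within single ages. It was 1 of 9 scores that passed with Aqp8, all with positive rho, among them mesothelium (rho = 0.42), epithelium (rho = 0.40), Hox13 (rho = 0.36), liver (rho = 0.36) and adipocyte (rho = 0.35). Summed medians of the surface colonocyte list were 9979, 11132, 10295, 9445 and 9610 CPM from the youngest age to the oldest. Those of the epithelial list were 11146, 10590, 11132, 10445 and 10452 CPM. The part of these cells in the course of Aqp8 was not tested. Aqp11 was most like Slc25a42, a mitochondrial carrier of coenzyme A (rho = 0.69), Acaa2, an enzyme of fatty acid oxidation (rho = 0.68), and Tmem59 (rho = 0.67). Besides Hox13, macrophage (rho = -0.33) and smooth muscle (rho = -0.32) scores passed with Aqp11 (adjusted permutation p = 0.015 and 0.017). Goblet cell, neutrophil and skeletal muscle scores passed as well, each at rho = -0.29 (adjusted permutation p = 0.0305, 0.0305 and 0.038). Within batches rho with the goblet cell score was -0.56, -0.36 and 0.01. Aqp3 had no close neighbour, the highest being Ighg2b, an immunoglobulin constant region, at rho = 0.41. Goblet cell (rho = 0.26) and macrophage (rho = 0.25) scores passed with Aqp3 (adjusted permutation p = 0.065 and 0.088).

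Water follows salt in the colon, and 21 genes of salt and water transport were examined beside the channels. Of the 20 tested, 13 were called between 3 and 28 months, 6 as higher and 7 as lower, where 49.4% of all genes were called, with a median change of 0.00 on the log2 scale (7e-04 before rounding) against -0.01 over all genes. The largest falls were those of Atp12a, the colonic proton-potassium pump, by 2.00 on the log2 scale (SE 0.37, adjusted p = 8.97e-06), and of Kcne3, the partner of the basolateral potassium channel, by 0.43 (SE 0.08, adjusted p = 4.56e-06). The largest rises were those of Slc9a3, the apical sodium-proton exchanger, by 0.36 (SE 0.12, adjusted p = 0.011), and of Kcnn4, a calcium-activated potassium channel, by 0.25 (SE 0.04, adjusted p = 4.36e-06). From 24 to 28 months, the step in which Aqp1 rose, 7 of 20 were called, 6 as higher and 1 as lower, against 11.7% of all genes. Slc9a3 was among the higher ones, by 0.40 (SE 0.12, adjusted p = 0.024).

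Glycerol and lipid handling was examined for the aquaglyceroporins through 11 genes, all tested. Between 3 and 28 months 6 were called, 4 as higher and 2 as lower, where 49.4% of all genes were called, with a median of 0.12 on the log2 scale. Gpd1, which links glycerol to glycolysis, was higher by 0.29 (SE 0.08, adjusted p = 0.0016), and Lipe, the hormone-sensitive lipase, by 0.24 (SE 0.09, adjusted p = 0.029). Mgll, which releases glycerol from monoglycerides, fell by 0.73 (SE 0.06, adjusted p = 3.14e-17), and Agpat2, an enzyme of triglyceride synthesis, by 0.13 (SE 0.06, adjusted p = 0.050). Mgll also fell from 15 to 24 months by 0.28 (SE 0.06, adjusted p = 0.0023) and from 24 to 28 months by 0.23 (SE 0.06, adjusted p = 0.011).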

How the data were processed

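RNA was measured in colon tissue of 83 mice. The authors used cutadapt 2.8 for trimming, PrinSeq Lite for quality filtering and HISAT2 2.1.0 for alignment to GRCm38, dropped secondary alignments with SAMtools 1.9 (stated to keep uniquely mapped reads) and counted read pairs per gene by strand with featureCounts of Subread 2.0.1. The deposited values are raw counts per gene and mouse, not pooled. Counting by strand limits reads shared with antisense genes.

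Ages and batches were taken from the labels. Counts were filtered with filterByExpr by age, normalized with TMM and fitted with edgeR 4.0.16 in R 4.3.3 (quasi-likelihood, age and batch, all mice), with Benjamini-Hochberg adjustment over 18325 genes and a threshold of 0.1. DESeq2 1.42.0 was an alternative test. Scores are mean log2 CPM of marker genes with a prior count of 2. Correlations were computed on deviations from age and batch with two-sided permutation tests (100000 resamples) in Python 3.11.15 with numpy 2.4.6. TPM used merged exon lengths of GENCODE M21, an earlier release than that of the methods, which holds 37652 of the 37764 genes. Genes named are the members, the other family genes, the salt transport and lipid lists, by the 2 largest changes in each direction among those called (the further steps of Mgll were added after their values were seen), the 3 genes most like each tested member, and Hox genes and markers. Members and lists were chosen with earlier results of these data known. Each label gives 1 mouse, and p-values measure the spread between mice.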

Additional observations from a re-analysis of the deposited data

How the results depend on the processing

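Counts of members called are given here in the order of the 5 comparisons of ages, the test over the 5 ages and the test of departure from a straight line, and were 0, 0, 0, 1, 4, 6 and 3 in the reported fit. Between 3 and 9 months the count was 1, through Aqp8, with DESeq2, with DESeq2 size factors, with at least 10 counts in every mouse, with the replicate block, with epithelial and smooth muscle scores and with the Hox13 score. Between 15 and 24 months it was 1, through Aqp7, with DESeq2 and with the adipocyte score. Between 24 and 28 months it was 0 within batch 2 and 0 within batch 3. Between 3 and 28 months it was 2 without a filter (Aqp1, Aqp7), 2 with at least 10 counts in every mouse, where Aqp7 and Aqp9 were not tested, 2 with only the 2 ages in the fit (Aqp1, Aqp7), where Aqp9 was not tested, 1 without the 3 mice of lowest scores (Aqp1), 1 with epithelial and smooth muscle scores (Aqp1), 1 at an adjusted p below 0.05, and 1, 0 and 0 within batches 1, 2 and 3. Over the 5 ages it was 2, 0 and 1 within the batches, and for the departure 1, 0 and 0. In the test over the 5 ages Aqp4 was lost without a filter, with epithelial and smooth muscle scores and with the Hox13 score, Aqp7 without the 3 mice of lowest scores, both Aqp4 and Aqp7 at an adjusted p below 0.05, and Aqp11 lost its departure with epithelial and smooth muscle scores. Fits within a batch hold fewer mice. With 1 mouse left out in turn the counts ranged from 0 to 2, 0 to 0, 0 to 1, 1 to 2, 2 to 4, 5 to 7 and 3 to 3. The Hox13 and adipocyte scores and the omission of a pair (replicate 16 of 3 and of 15 months) and of 3 mice (also replicate 10 of 3 months) were chosen after the data were seen.

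The replicate block gave 1, 0, 0, 1, 4, 7 and 3 members. Replicate numbers were shared by ages only as names: of 161 pairs of mice with the same number, 38 had deviations correlated above 0.1, and 4 of 83 mice correlated best with a mouse of their own number.

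Signs turned only where neither fit called the gene, and the cause was not tested. With the replicate block the log2 fold change was 2e-04 for Aqp1 from 9 to 15 months, -8e-04 for Aqp1 from 15 to 24 months and 0.0054 for Aqp9 from 15 to 24 months. Within batch 1 it was 0.21 for Aqp3 and 0.035 for Aqp8 from 9 to 15 months, -0.19 for Aqp3 from 15 to 24 months, and 0.072 for Aqp4 and -0.047 for Aqp7 from 3 to 9 months. Within batch 2 it was 0.0699 for Aqp4 and -0.18 for Aqp9 from 3 to 9 months, 0.071 for Aqp1 and 0.031 for Aqp8 from 9 to 15 months, -0.19 for Aqp7 and 0.12 for Aqp9 from 15 to 24 months, and -0.0093 for Aqp11 from 24 to 28 months. Within batch 3 it was 0.063 for Aqp1, 0.13 for Aqp3 and -0.051 for Aqp4 from 9 to 15 months, -0.063 for Aqp1, -0.027 for Aqp3, 0.27 for Aqp4 and -0.044 for Aqp11 from 15 to 24 months, -1.0 for Aqp7 and 0.023 for Aqp9 from 24 to 28 months, and 0.093 for Aqp8 and 0.035 for Aqp11 from 3 to 28 months. Aqp8 from 9 to 15 months was 0.0053 without a batch term, 0.0023 with epithelial and smooth muscle scores, 0.0199 without the pair of mice, 0.0228 without the 3 mice and 0.0087 with the adipocyte score. With the Hox13 score it was 0.0082 for Aqp1 from 9 to 15 months and 0.011 for Aqp8 from 3 to 28 months, where epithelial and smooth muscle scores gave 0.0052.

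Of all genes, 1593 were called from 3 to 9 months and 2476 from 15 to 24 months, against 882 and 1524 without a filter, and 659 from 3 to 9 months without the 3 mice. The values of Aqp3, Aqp7 and Aqp9 rest on few reads.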
